A study of Homo sapiens with 20 samples.

Results

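The core sites described here are the regions bound by POU2F3 in both lines of the tuft cell-like subtype of small cell lung cancer, SCLC-P. They were chosen by measured binding alone, as the NCI-H526 regions of the POU2F3 antibody with DMSO that overlapped, by at least 1 base, a region of the same antibody with DMSO in NCI-H1048 cells, on chromosomes 1 to 22 and X. The titles of the NCI-H1048 pair do not name its target, which was taken from the antibody given in the labels. There were 21412 core sites among 89850 NCI-H526 regions, or 23.8%, and they covered 21534 of 38034 NCI-H1048 regions, or 56.6%. The remaining 68438 NCI-H526 regions are called NCI-H526-only regions below. All 20 ChIP-seq peak lists of the series together held 562708 regions.

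The series compared the binding of POU2F3 and its coactivators in 10 pairs of libraries, each with 1 DMSO library and 1 library of cells given AU-15330 at 1 µM for 4 to 6 h. AU-15330 is a PROTAC degrader of SMARCA2 and SMARCA4, the ATPases of the mSWI/SNF chromatin remodelling complex. NCI-H526 cells were profiled with the POU2F3 antibody and, with an HA antibody, for HA-POU2F3 and HA-POU2AF2. NCI-H1048 cells were profiled with the POU2F3 antibody, for HA-POU2F3 and for a further HA-tagged protein that the labels do not name (6 h of AU-15330 for both HA pairs). The named tagged proteins were lentiviral dTAG fusions in Cas9-expressing cells from which the endogenous gene had been knocked out. An HA library of these thus differs from an antibody library in its cells as well as in its antibody. The titles of the unnamed HA pair do not give its construct. POU2AF1 and IRF4 were profiled in MM1.S and NCI-H929, which are lines of multiple myeloma. With 1 library per condition there is no replicate, so no test between treatments was possible, and the 95% exact binomial intervals given below cover counting error only.

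POU2F3 is a POU domain transcription factor and the master regulator of tuft cells, the rare chemosensory cells of mucosal epithelia. POU factors bind the octamer sequence, of which TTTGCAT is the core, with a bipartite DNA-binding domain. A coactivator of the OCA family can then sit on the POU domain and the DNA together. POU2AF2 and POU2AF3 are the coactivators of POU2F3 in tuft cells, and POU2AF1 (OBF-1) is that of POU2F1 and POU2F2 in B cells and plasma cells. IRF4 is a transcription factor on which myeloma cells depend.

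The octamer core was found within 100 bases of the NCI-H526 summit at 11246 core sites, or 52.5%, and in 4.72% of windows of the same length lying 2 kb to either side. It was searched on both strands. The sequences below, read from GRCh38 in the direction of the motif, are core sites at genes of the tuft cell program and are shown because the values of the following sections refer to them. TTTGCAT is in capitals.
POU2F3 intron, chr11:120255407-120255467, plus strand: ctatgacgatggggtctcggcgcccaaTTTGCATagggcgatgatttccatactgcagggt
POU2AF2 intron, chr11:111273905-111273965, minus strand: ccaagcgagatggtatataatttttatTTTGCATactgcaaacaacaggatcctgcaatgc
POU2AF3 intron, chr11:111303622-111303682, plus strand: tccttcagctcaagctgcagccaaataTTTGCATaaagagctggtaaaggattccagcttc
GFI1B, 1.01 kb from the TSS, chr9:132942942-132943002, plus strand: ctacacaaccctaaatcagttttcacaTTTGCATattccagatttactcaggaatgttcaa
AVIL promoter, chr12:57818747-57818807, plus strand: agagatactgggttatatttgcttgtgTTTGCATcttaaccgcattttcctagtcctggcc
HTR3E promoter, chr3:184099939-184099999, plus strand: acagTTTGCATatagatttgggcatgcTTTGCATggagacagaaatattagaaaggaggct
SUCNR1 promoter, chr3:151873556-151873616, minus strand: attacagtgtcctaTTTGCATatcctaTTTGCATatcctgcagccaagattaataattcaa
IRAG2 intron, chr12:25058873-25058933, minus strand: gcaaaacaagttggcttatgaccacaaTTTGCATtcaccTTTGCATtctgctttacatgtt

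At these sites the octamer core lay close to the peak of binding. Over all 11246 sites its nearest copy was a median of 23 bases from the NCI-H526 summit (quartiles 10.0 and 44). A window of the same length around the NCI-H1048 summit held it at 91.6% of them. More than 1 copy was present at 3067 sites, or 27.3%, as at HTR3E, SUCNR1 and IRAG2. The base before the core was A at 70.6% of copies at distal core sites, 67.1% at promoter core sites and 31.7% in the flanks. The longer octamer ATTTGCAT was present at 41.0% of core sites and in 1.52% of flanks.

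Overlap between the lines was usually broad. The NCI-H1048 regions covered a median of 67.2% of the NCI-H526 region, and the summits of both lines lay a median of 45 bases apart. At the edge of the rule, the 187 core sites that overlapped by at most 50 bases had a median fold enrichment over local background of 3.54. The 139 NCI-H526-only regions within 50 bases of a NCI-H1048 region had a median of 3.45. HA-POU2F3 regions of NCI-H1048 cells were present at 14.4% and 12.9% of these edge groups.

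The core sites fell into 4 classes by distance to a gene start and by sequence. A promoter site lay within 1 kb of the transcription start site (TSS) of a protein-coding gene, and all others are called distal. Of the core sites, 10453 were distal with the octamer core, or 48.8%, and 4662 were distal without it, or 21.8%. A further 793 were at promoters with the octamer core, or 3.70%, and 5504 were at promoters without it, or 25.7%. Promoters thus made up 29.4% of core sites, introns 31.0%, exons 1.77% and intergenic sequence 37.8%. Promoters made up 11.2% of NCI-H526-only regions and 10.4% of NCI-H1048 regions outside the core.

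The promoter sites without the octamer core differed in sequence from the other classes. Their median GC content was 68.2%, against 37.8% at distal sites with the octamer core, and they lay a median of 69 bases from a TSS. GGGCGGG, the GC box of the Sp/KLF factors, was present at 43.0% of them and in 1.92% of their flanks. CCGGAAG, an ETS motif, was present at 19.8% and in 0.705% of flanks. Over all core sites the RUNX motif AACCACA was at 7.92% (flanks 3.44%), the CTCF motif at 1.51% (0.165%) and the NRF1 motif at 1.08% (0.00478%). The AP-1 motif TGANTCA was at 6.13% (6.23%), the E-box CAGCTG at 9.06% (7.08%) and CCAAT at 26.8% (26.0%). A match to these letters is a description of the sequence and does not show which factor was bound. The median NCI-H526 fold was 6.95 at distal sites with the octamer core and 4.77 at promoter sites without it.

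HA-POU2F3 of NCI-H526 cells had a region at 14910 core sites, or 69.6%, against 40.6% of all NCI-H526 POU2F3 regions. HA-POU2AF2 had one at 11697, or 54.6% (all regions 28.6%), HA-POU2F3 of NCI-H1048 cells at 9563, or 44.7% (all regions 13.8%), and the unnamed HA protein at 8705, or 40.7% (all regions 12.2%). All 3 named HA lists met at 5706 core sites, or 26.6% (all regions 7.43%). None of the 4 HA lists had a region at 2738 core sites, or 12.8% (all regions 46.9%).

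The share of regions present in the HA lists rose with the fold of the region, so strength was taken into account. When NCI-H526-only regions were weighted to the same distribution of NCI-H526 fold, over 20 classes, HA-POU2F3 of NCI-H526 cells was at 48.5% of them and HA-POU2AF2 at 36.8%. HA-POU2F3 of NCI-H1048 cells was then at 6.43%, which leaves the largest gap of the 3 named lists to the core sites. This last comparison is partly fixed by the rule, since the core sites were chosen as bound in NCI-H1048 cells. The octamer core was at 45.1% of NCI-H526-only regions before weighting and at 56.3% at the same fold distribution, below and above the 52.5% of core sites.

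**Figure D1:**
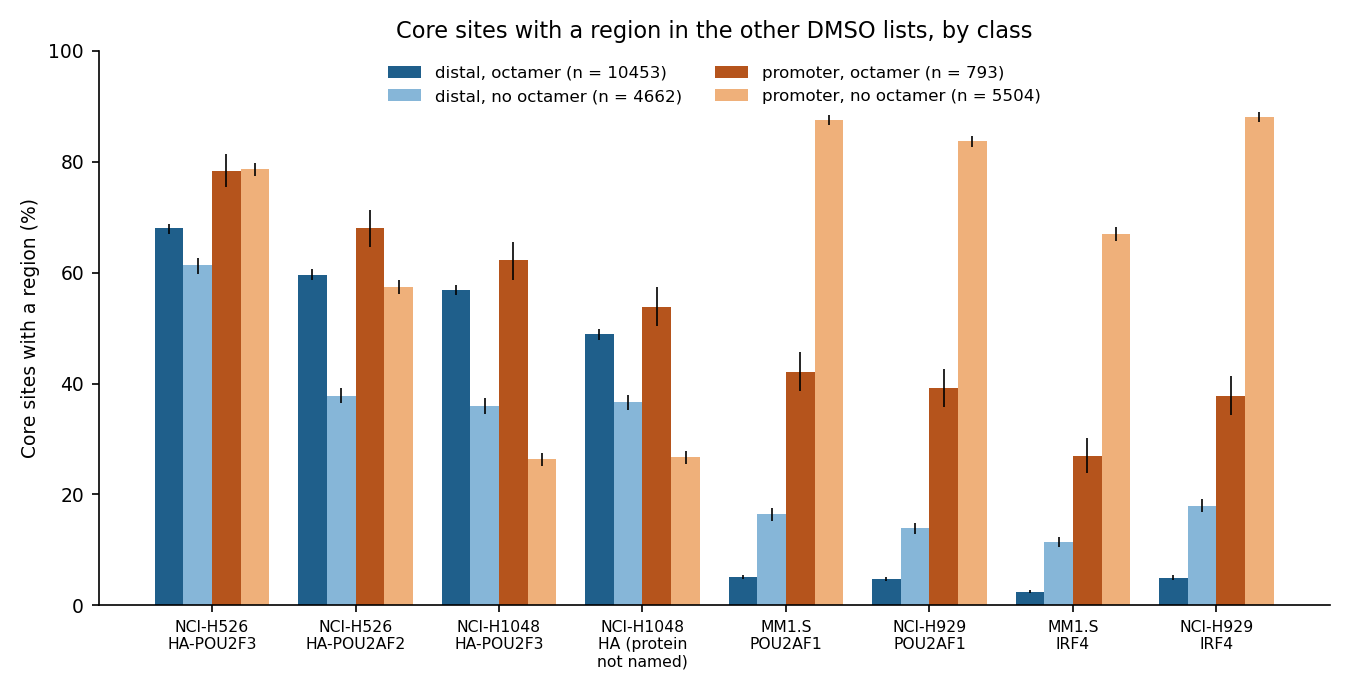
Percent of core sites (vertical axis) with a region in each of the 8 DMSO lists that the rule did not use, by class of site, with 95% exact binomial intervals for counting error. The HA lists are present in every class, whereas the myeloma lists are at 2.48% to 5.09% of distal sites with the octamer core and at 67.0% to 88.1% of promoter sites without it.

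Presence in the HA lists depended on the class. HA-POU2F3 of NCI-H1048 cells was at 56.9% of distal sites with the octamer core, 35.9% of distal sites without it, 62.2% of promoter sites with it and 26.4% of promoter sites without it. HA-POU2AF2 was at 59.6%, 37.8%, 68.0% and 57.4% in the same order. The NCI-H526 HA-POU2F3 list differed less between the classes and was at 61.3% to 78.7%.

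The myeloma lists, of cells of another lineage, were found at the core sites almost entirely by class. At least 1 of the 4 myeloma DMSO lists had a region at 7611 core sites, or 35.5%, against 19.4% of all NCI-H526 regions. The share was 93.7% at promoter sites without the octamer core and 9.36% at distal sites with it. POU2AF1 of MM1.S cells was at 87.5% of the former and 5.09% of the latter, and IRF4 of NCI-H929 cells, a protein with no POU domain, was at 88.1% and 5.01%. Over all core sites POU2AF1 was at 30.1% in MM1.S cells and 28.3% in NCI-H929 cells (all regions 14.3% and 12.6%), and IRF4 at 21.9% and 30.4% (all regions 9.75% and 15.5%). All 4 lists met at 3939 core sites, or 18.4% (all regions 7.05%). POU2AF1 of both myeloma lines met at 5472 core sites, or 25.6% (all regions 10.6%), and at 267 distal core sites with the octamer core, of which 145 were intergenic and 115 intronic.

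A small set of 20 core sites, or 0.0934%, had a region in all 20 lists (0.0223% of all NCI-H526 regions), and all 20 were distal without the octamer core. The strongest, an intergenic region on chromosome 13 from 18211860 to 18212267 whose nearest protein-coding gene was TUBA3C 970 kb away, had folds of 16.3 to 39.0 over all 20 lists. Its AU-15330 fold was above its DMSO fold in each pair except that of the NCI-H1048 POU2F3 antibody, where it went from 29.6 to 27.6. These folds are not scaled between libraries. The others named by the same rule lay nearest to TPTE at 2101 kb, FRG2C at 4.93 kb, EXD3 at 24.6 kb and PPIAL4H at 32.3 kb. TPTE, FRG2C and PPIAL4H belong to families with near-identical copies in the genome, but the sites nearest to them were intergenic. Reads can be misplaced in repeated sequence, and whether these sites lie in such sequence was not tested. At the other end, 1276 core sites, or 5.96%, had a region only in the 2 lists that chose them.

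In 5 of the 6 SCLC-P pairs, most core sites with a DMSO region had no AU-15330 region. This held in 4 of the 6 when core sites were formed again from equal numbers of the strongest regions. A site is called kept where the DMSO list of a pair had a region at it and the AU-15330 list did too, and lost otherwise. With the POU2F3 antibody 7744 of 21412 core sites were kept in NCI-H526 cells, or 36.2% (35.5 to 36.8), against 16.7% of all regions of that DMSO list. For HA-POU2F3 of that line 4883 of 14910 were kept, or 32.7% (32.0 to 33.5; all regions 14.6%). HA-POU2AF2 kept 301 of 11697, or 2.57% (all regions 1.25%), and the unnamed HA protein 296 of 8705, or 3.40% (all regions 1.94%).

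In NCI-H1048 cells the antibody and the tag gave different pictures. The POU2F3 antibody kept 13015 of 21412 core sites, or 60.8% (all regions 44.6%). HA-POU2F3 kept 1224 of 9563, or 12.8% (12.1 to 13.5; all regions 7.72%). The AU-15330 list of the antibody held more regions than its DMSO list, 51406 against 38034, and its background pileup was higher, at 3.04 against 2.27. In every other SCLC-P pair the AU-15330 list was the shorter.

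These shares depend on how deeply each list was called. With the background of each AU-15330 library and an unchanged level of binding, an estimated 96.3% of the NCI-H526 POU2F3 core regions would still have passed the AU-15330 list's lowest p-value. The estimate was 74.9% for HA-POU2AF2, whose AU-15330 library had the lowest background pileup, 1.21, and 100% for both HA-POU2F3 pairs. The same number of strongest regions was also taken from both lists of a pair and both POU2F3 DMSO lists. Core sites were formed again from these regions, which gave a smaller and stronger set that differed between pairs. In NCI-H526 cells it held 6816 sites for the POU2F3 antibody, 5462 for HA-POU2F3 and 839 for HA-POU2AF2. Of those with a DMSO region, 64.7%, 44.1% and 11.5% were kept. In NCI-H1048 cells the sets held 14478 sites for the antibody, 2063 for HA-POU2F3 and 408 for the unnamed protein. The shares kept were 55.3%, 21.3% and 16.6%. With the NCI-H526 antibody most sites of this stronger set were kept rather than lost. Its share was above that of the NCI-H1048 antibody, but the sets of the lines were unlike, so the shares do not rank the lines.

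**Figure D2:**
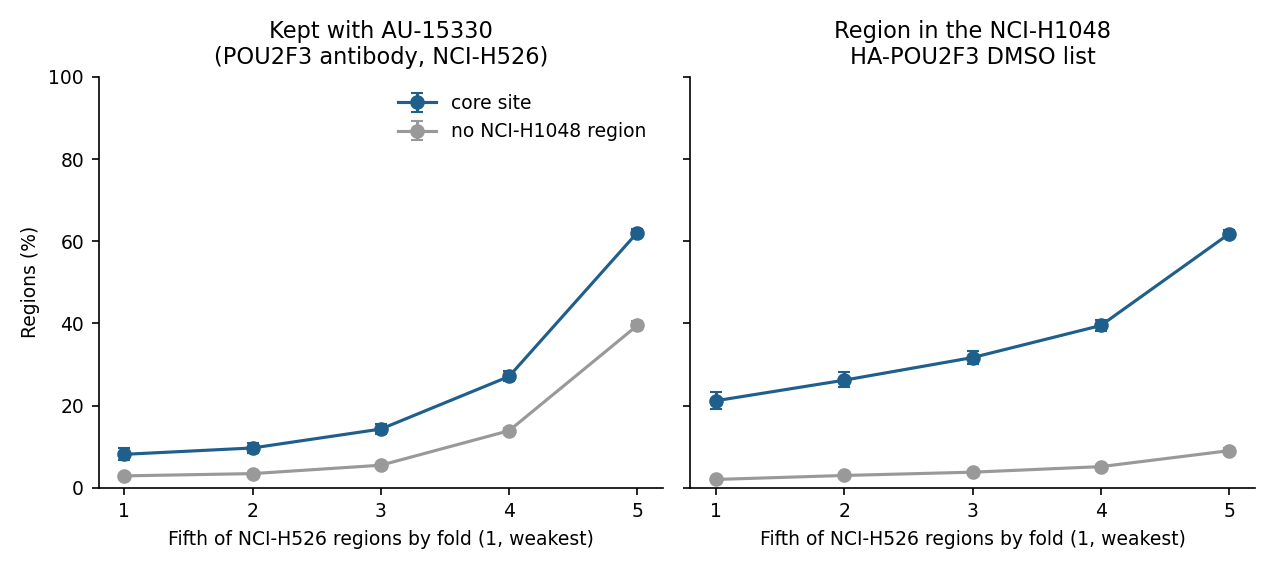
Percent of core sites (blue) and of NCI-H526-only regions (grey) on the vertical axis, kept by the NCI-H526 POU2F3 pair on the left and with a HA-POU2F3 region in NCI-H1048 cells on the right, with 95% exact binomial intervals, in 5 classes of NCI-H526 fold from weakest to strongest (horizontal axis). Kept core sites go from 8.15% in the weakest class to 62.1% in the strongest, and kept NCI-H526-only regions from 2.91% to 39.5%.

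Stronger sites were kept more often, and core sites more often than NCI-H526-only regions of the same strength. Of the core sites, 8.15% were kept by the NCI-H526 POU2F3 pair in the weakest of 5 fold classes and 62.1% in the strongest. Of the NCI-H526-only regions, 2.91% and 39.5% were kept in the same classes. At the fold distribution of the core sites, 24.2% of NCI-H526-only regions would have been kept, against 36.2% of core sites.

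The lines did not keep the same core sites. With the POU2F3 antibody 5290 core sites, or 24.7%, were kept in both lines, 2454 only in NCI-H526 cells, 7725 only in NCI-H1048 cells and 5943, or 27.8%, in neither. A HA-POU2F3 region was present in both lines at 7503 core sites, or 35.0% (all regions 10.1%), and of these 789, or 10.5%, were kept in both and 4472, or 59.6%, in neither. Those kept in only 1 line were mostly kept in NCI-H526 cells with the tag, 1905 against 337, and in NCI-H1048 cells with the antibody.

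**Figure D3:**
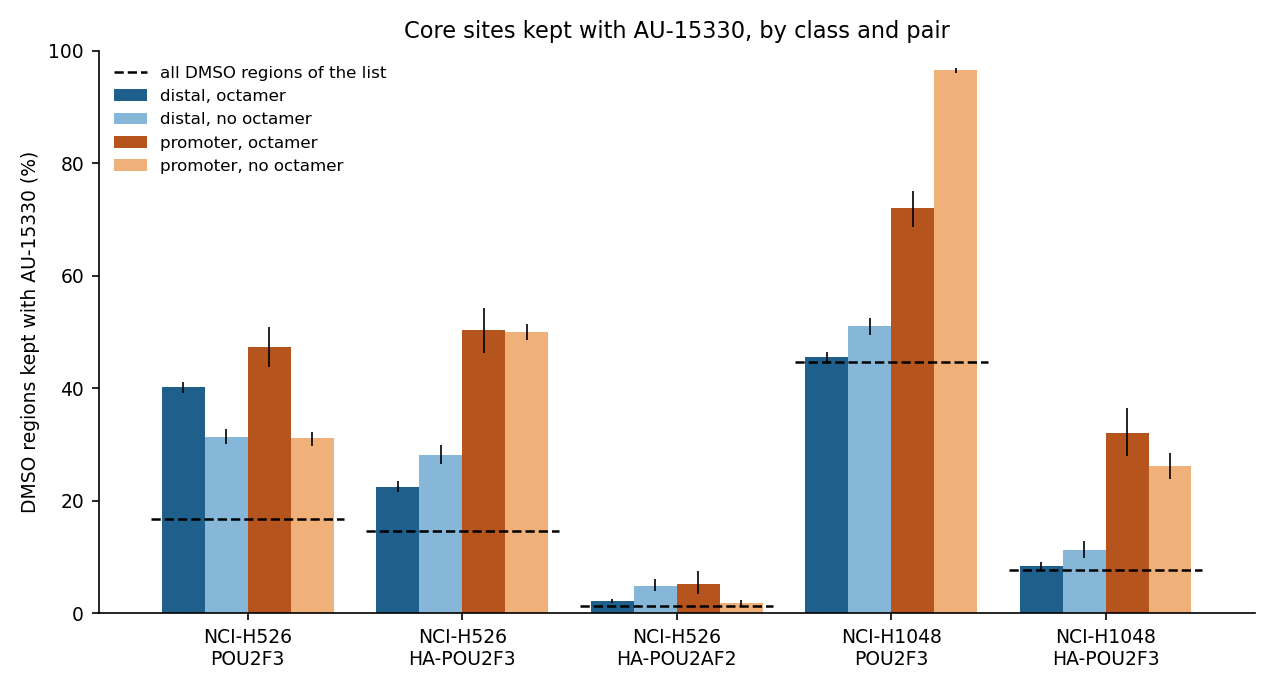
Percent of core sites kept with AU-15330 (vertical axis) in each pair, by class of site, with 95% exact binomial intervals for counting error and, as dashed lines, the share over all regions of the DMSO list. The NCI-H1048 POU2F3 pair reaches 96.5% at promoter sites without the octamer core, and the HA-POU2AF2 pair stays between 1.77% and 5.19% in all 4 classes.

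Distal sites with the octamer core were kept least in 3 of the 4 POU2F3 and HA-POU2F3 pairs. In NCI-H1048 cells the POU2F3 antibody kept 45.5% of them, against 51.0% of distal sites without it, 72.0% of promoter sites with it and 96.5% of promoter sites without it. The tagged protein of NCI-H526 cells kept 22.5%, 28.2%, 50.3% and 50% in the same order. HA-POU2F3 of NCI-H1048 cells kept 8.37%, 11.2%, 32.0% and 26.2%. The NCI-H526 POU2F3 antibody pair departed from this order, with 40.2%, 31.4%, 47.3% and 31.1%.

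Strength differs between the classes. At a common fold distribution, distal sites with the octamer core were kept least in all 4 POU2F3 and HA-POU2F3 pairs. In the NCI-H526 POU2F3 pair the weighted shares were 31.8% for distal sites with the octamer core, 36.2% for those without, 40.9% for promoter sites with it and 41.0% for those without. The corresponding extremes were 42.6% and 96.9% in the NCI-H1048 POU2F3 pair, 19.1% and 57.6% for HA-POU2F3 of NCI-H526 cells, and 7.51% and 38.9% for HA-POU2F3 of NCI-H1048 cells. Without weighting, distal sites with the octamer core were below promoter sites without it in 3 of the 4 pairs under every alternative tried, and in the NCI-H526 POU2F3 pair under none.

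The POU2AF1 pairs of the myeloma lines also kept distal sites with the octamer core least. POU2AF1 of MM1.S cells kept 77.7% of 6447 core sites (all regions of its list 33.7%), and POU2AF1 of NCI-H929 cells kept 82.1% of 6066 (all regions 38.4%). At distal sites with the octamer core the shares were 28.4% and 29.5%, and at promoter sites without it 86% and 89.8%. IRF4 kept 28.8% of core sites in MM1.S cells and 3.44% in NCI-H929 cells (all regions 9.76% and 0.887%). Its shares at distal sites with the octamer core, distal sites without, promoter sites with and promoter sites without were 6.18%, 28.9%, 26.8% and 30.4% in MM1.S cells and 0.191%, 7.98%, 2.67% and 3.05% in NCI-H929 cells.

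The level of binding was compared at kept sites as the summit pileup, the number of fragments over the summit, divided by the background pileup of the same library. The median ratio of AU-15330 to DMSO was 0.600 with the NCI-H526 POU2F3 antibody, where 90.9% of 7744 kept sites were lower. It was 0.605 for HA-POU2F3 of NCI-H526 cells and 0.694 for HA-POU2F3 of NCI-H1048 cells. With the NCI-H1048 POU2F3 antibody it was 1.37. A level at a site that was lost is below the calling limit and is not in these ratios.

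By class, the NCI-H1048 POU2F3 antibody gave 0.688 at distal sites with the octamer core, 1.10 at distal sites without it, 1.43 at promoter sites with it and 2.24 at promoter sites without it. In NCI-H526 cells the same antibody gave 0.538, 0.625, 0.599 and 0.777. HA-POU2F3 of NCI-H1048 cells gave 0.497, 0.808, 0.645 and 0.885. Distal sites with the octamer core thus had the lowest ratio in each of these pairs. They also had the lowest ratio for HA-POU2F3 of NCI-H526 cells, 0.436. HA-POU2AF2 gave 0.590, 0.979, 0.523 and 0.841 in the same order of classes. Its lowest ratio was thus at promoter sites with the octamer core, of which 28 were kept.

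**Figure D4:**
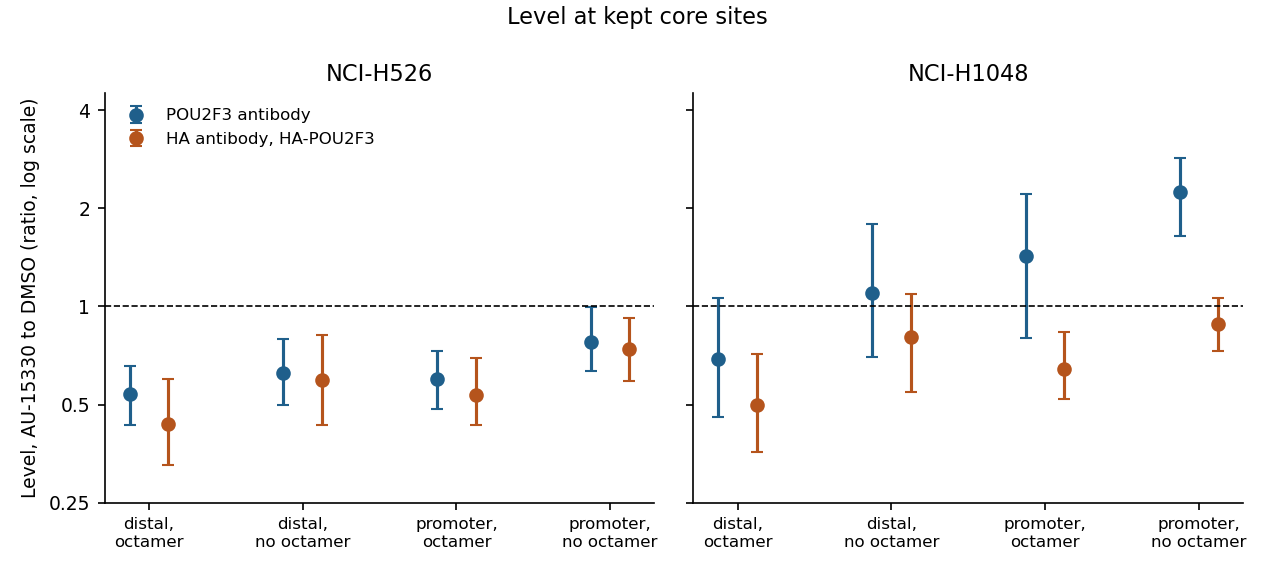
Ratio of the AU-15330 to the DMSO level at kept core sites (vertical axis, log scale) by pair and class of site, as the median and quartiles over sites, with a dashed line at a ratio of 1. The median of the NCI-H1048 POU2F3 pair lies above 1 in 3 classes and reaches 2.24, while the medians of both HA-POU2F3 pairs lie below 1 in all 4.

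The same sites gave opposite directions with the antibody and the tag in NCI-H1048 cells. At the 1205 core sites that both kept, the median ratio was 1.9 with the POU2F3 antibody and 0.692 with HA-POU2F3, and 804 sites, or 66.7%, were higher by the former and lower by the latter. At the 3026 core sites kept by both in NCI-H526 cells the medians were 0.621 and 0.550, and 7.07% of sites went this way. Antibody, cells, expression level and library cannot be told apart here. For NCI-H1048 cells the paper gives the same treatment time for POU2F3 and HA-POU2F3, while the sample labels give only a range for the antibody pair.

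The octamer core was present both at strong sites lost in all 5 named pairs and at strong sites kept in all 5. These were chosen among the 5706 core sites with a DMSO region in all 5, and 3 examples of each follow, first the lost and then the kept. TTTGCAT is in capitals.
FLRT1 intron, chr11:64107503-64107563, plus strand: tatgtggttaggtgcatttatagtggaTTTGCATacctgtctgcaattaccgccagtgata
Intergenic, nearest gene UBE2E3, chr2:180777078-180777138, minus strand: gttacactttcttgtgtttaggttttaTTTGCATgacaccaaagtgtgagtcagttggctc
SH2D4B intron, chr10:80579404-80579464, plus strand: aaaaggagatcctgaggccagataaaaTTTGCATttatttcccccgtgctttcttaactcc
SRPK1 intron, chr6:35832087-35832147, minus strand: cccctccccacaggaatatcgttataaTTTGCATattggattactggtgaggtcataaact
DOP1B intron, chr21:36247816-36247876, minus strand: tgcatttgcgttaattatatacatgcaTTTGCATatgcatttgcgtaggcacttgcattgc
Intergenic, nearest gene TP53BP2, chr1:223876616-223876676, minus strand: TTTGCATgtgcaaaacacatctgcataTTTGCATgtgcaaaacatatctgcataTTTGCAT

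At all 6 sites binding with DMSO was strong. The FLRT1 site had folds of 16.2 and 15.4 with the POU2F3 antibody in NCI-H526 and NCI-H1048 cells, 17.6 and 9.42 for HA-POU2F3 in those lines and 7.57 for HA-POU2AF2, and no region in any AU-15330 list. The SRPK1 site had antibody folds of 15.9 and 17.2 with DMSO and 12.8 and 14.4 with AU-15330. Its antibody level over background went from 47.8 to 27.2 in NCI-H526 cells and from 32.2 to 38.2 in NCI-H1048 cells. Its HA-POU2AF2 folds were 13.5 with DMSO and 6.47 with AU-15330. The TP53BP2 site, where 3 copies of the core stand in the printed window, had HA-POU2AF2 folds of 18.3 and 4.74.

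Over the 5706 sites, 505, or 8.85%, were lost in all 5 named pairs and 123, or 2.16%, were kept in all 5. The octamer core was present at 84.2% of the lost and 53.7% of the kept (all 5706, 69.5%). Distal sites with the octamer core made up 81.8% of the lost and 37.4% of the kept. Promoter sites without it made up 0.198% of the lost and 5.69% of the kept, against 17.4% of the 5706. A myeloma DMSO region was present at 9.31% of the lost, 77.2% of the kept and 32.6% of all. By definition the 123 kept sites include the 20 with a region in every list, which are all distal without the octamer core. Each of those also has myeloma regions, and the shares were not computed without them. The median NCI-H526 fold was 7.69 at the lost and 9.58 at the kept sites.

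Sites with more than 1 octamer core were kept more often than those with 1. Among distal core sites the NCI-H526 POU2F3 antibody kept 49.9% of the 2930 with more than 1 and 36.4% of the 7523 with 1, and HA-POU2AF2 was present at 72.9% and 54.5%. The former were also stronger, with a median NCI-H526 fold of 8.34 against 6.53.

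Of the 10 core sites of best rank in both lines, DOP1B and ZNF532 had the octamer core, KDM2B and ZMIZ2 had a palindrome in its place, and the other 6 had neither. Among the latter, VPREB1, with antibody folds of 27.2 and 27.6, had no region in any HA list. MUC20 and RFX2 had HA regions for HA-POU2F3 of NCI-H526 cells only. TUBA3C, POLR2J3 and CNTNAP3C had a HA-POU2F3 region in both lines. POU domains can bind as a dimer to a palindrome like that at KDM2B and ZMIZ2, known as a MORE-type element. In the structures known for POU2F1 this arrangement covers the surface that POU2AF1 uses. The search, for the half-site ATGNAT followed directly by its reverse complement ATNCAT, was made after the sequences of the strongest sites had been seen. Such a palindrome reads the same on both strands, and it can share bases with TTTGCAT only at its ends. It was present at 108 core sites, or 0.504%, and in 0.0932% of flanks, and at 0.726% of NCI-H526-only regions. The examples below have the palindrome in capitals.
KDM2B exon, chr12:121467397-121467457, plus strand: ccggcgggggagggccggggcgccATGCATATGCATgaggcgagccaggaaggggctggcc
ZMIZ2 promoter, chr7:44748806-44748834, plus strand: gcggcgtcATGCATATGCATgagcggcgc

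The KDM2B site, on chromosome 12 from 121467163 to 121467675, had a HA-POU2F3 fold of 27.0 in NCI-H526 cells and a HA-POU2AF2 fold of 5.17. The ZMIZ2 site had 24.3 and 4.24. POU2AF1 also had a DMSO region at both sites in MM1.S and NCI-H929 cells, with folds of 4.93 and 4.62 at KDM2B and 3.93 and 5.36 at ZMIZ2. IRF4 of NCI-H929 cells had one at both sites too, with folds of 5.87 and 5.82. A region was present at KDM2B in 13 lists and at ZMIZ2 in 17. At octamer sites of like HA-POU2F3 fold the HA-POU2AF2 fold was higher, with 23 and 15.9 at DOP1B, 24.1 and 9.60 at ZNF532 and 19.7 and 18.3 at TP53BP2. DOP1B and TP53BP2 are also among the sites kept in all 5 named pairs, a set that needs HA-POU2AF2 regions.

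**Figure D5:**
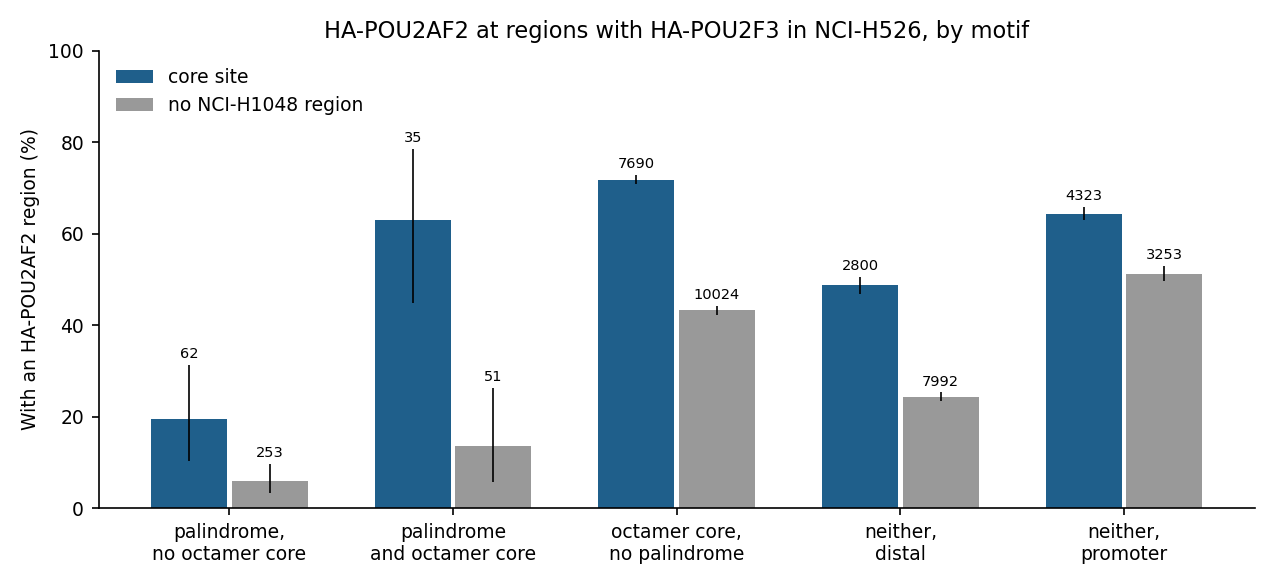
Percent of core sites (blue) and of NCI-H526-only regions (grey, no NCI-H1048 region) with HA-POU2F3 in NCI-H526 cells that also have a HA-POU2AF2 region (vertical axis), by motif within 100 bases of the summit, with 95% exact binomial intervals for counting error and the number of regions above each bar. Core sites with the palindrome and no octamer core are at 19.4%, below the 48.8% to 71.8% of sites with the octamer core alone or with neither motif.

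Of the core sites with a HA-POU2F3 region in NCI-H526 cells, 62 had the palindrome and no octamer core, and 12 of them, or 19.4% (10.4 to 31.4), had a HA-POU2AF2 region. With the octamer core and no palindrome the share was 5523 of 7690, or 71.8% (70.8 to 72.8). With both it was 22 of 35, or 62.9%. With neither it was 48.8% at distal sites and 64.4% at promoters. HA-POU2F3 itself was stronger at the palindrome, with a median level of 28.4 times background against 12.1 at octamer sites. Where HA-POU2AF2 had a region, its level was a median of 0.162 of the HA-POU2F3 level at the palindrome and 0.658 at octamer sites.

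The gap held among sites of strong HA-POU2F3 binding, with 11 of 45, or 24.4%, at the palindrome and 1860 of 2056, or 90.5%, at octamer sites in the highest of 5 level classes. It was present at the NCI-H526-only regions too, with 15 of 253, or 5.93%, and 43.3%. In NCI-H1048 cells the unnamed HA protein had a region at 9 of 27, or 33.3% (16.5 to 54.0), of the palindrome sites with HA-POU2F3 and at 68.5% of the octamer sites.

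Sites with the palindrome and no octamer core were kept in larger shares than octamer sites in 3 of the 5 named pairs. HA-POU2F3 of NCI-H526 cells kept 51.6% of those without the octamer core and 24.6% of octamer sites without the palindrome. The POU2F3 antibody of NCI-H526 cells kept nearly equal shares, 28 of 70 and 40.6%. That of NCI-H1048 cells kept 75.7% and 47.3%, and HA-POU2F3 of NCI-H1048 cells kept 9 of 27, or 33.3%, and 10.2%. HA-POU2AF2 kept 0 of 13 such sites, which allows a share of up to 23.1%, and 2.35% of octamer sites. These values rest on at most 70 core sites with the palindrome and no octamer core. They were not matched for strength, and the median NCI-H526 fold was 8.27 at these sites and 6.93 at octamer sites.

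Core sites lay at many genes of the tuft cell program. A gene was counted where a core site lay in its body or the 10 kb upstream. This held for 31 of 45 tuft cell genes, or 68.9%, against 9994 of 19970 protein-coding genes, or 50%. No test was made, since the genes were listed with results of these data known. Longer genes hold more sites by their length: the median window was 53.9 kb for genes with a core site and 27.0 kb for those without, and it was 35.2 kb for the tuft cell genes.

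By role, a core site was found at 7 of 9 tuft cell factors and coactivators, 10 of 14 genes of chemosensory signalling, 2 of 6 of eicosanoid synthesis and 12 of 16 of the cytoskeleton, kinases and cytokine signalling. Among the genes without one were TRPM5, the cation channel of taste transduction, SOX9 and SPIB, DCLK1, PTGS2 and ALOX5AP. Of the genes of other cell types, 7 of 20 neuroendocrine genes had a core site, as did 6 of 18 plasma cell genes and 5 of 12 hepatocyte genes. None was found at the neuroendocrine regulators NEUROD1 and INSM1. NCAM1, a long neuroendocrine gene, held 10. Of the mSWI/SNF subunit genes 22 of 27 had one, and of the housekeeping genes 9 of 16.

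POU2F3 held 6 core sites, 5 with the octamer core. The strongest, in an intron 15.2 kb from the TSS on chromosome 11 from 120254667 to 120255756, had antibody folds of 8.61 and 9.89 with DMSO in NCI-H526 and NCI-H1048 cells and 7.78 and 9.52 with AU-15330. The antibody level over background there went from 78.3 to 54.8 in NCI-H526 cells and from 38.4 to 40.2 in NCI-H1048 cells. HA-POU2F3 folds there were 9.90 with DMSO and 4.54 with AU-15330 in NCI-H526 cells, and 10.8 and 5.31 in NCI-H1048 cells. HA-POU2AF2 gave 6.58 and 4.09. The site thus kept a region in all 5 named pairs, and no myeloma list had one. POU2F3 is the gene that was knocked out in the HA-POU2F3 cells, and the part of this in the HA-POU2F3 values at its own locus was not tested.

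The coactivator genes POU2AF2 and POU2AF3, neighbours on chromosome 11, held 3 and 2 core sites. The strongest at POU2AF2, in an intron 17.9 kb from the TSS, had a HA-POU2AF2 fold of 12.2 with DMSO and 4.05 with AU-15330. Its antibody folds in NCI-H1048 cells were 10.0 with DMSO and 13.4 with AU-15330. POU2AF2 is also the gene that was knocked out in the HA-POU2AF2 cells, and the part of this in the HA-POU2AF2 values at its own locus was not tested. At POU2AF3, antibody folds were 8.13 with DMSO and 5.89 with AU-15330 in NCI-H526 cells, and no HA-POU2F3 or HA-POU2AF2 region remained there in that line.

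Of the 31 tuft cell genes with a core site, 23 kept at least 1 antibody region in NCI-H526 cells, and 3 of the 28 with a HA-POU2AF2 region kept 1. GFI1B, a transcriptional repressor gene of tuft cells, had folds of 12.3 and 6.45 with the antibody in NCI-H526 cells and a HA-POU2AF2 fold of 10.6 with DMSO only. AVIL, which encodes the actin-binding protein advillin, had 11.5 and 7.30 in NCI-H526 cells, but its antibody region in NCI-H1048 cells, 7.66 with DMSO, was lost. SUCNR1, the succinate receptor gene, had folds of 9.59 and 9.67 with the antibody in NCI-H526 cells, while its level over background was 73.4 with DMSO and 48.9 with AU-15330.

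Over the 63 core sites in the windows of tuft cell genes, 71.4% had the octamer core (43.2% for core sites in the windows of all protein-coding genes). The NCI-H526 POU2F3 antibody kept 60.3% of them, against 36% for all genes. HA-POU2F3 of NCI-H526 cells kept 47.9% (36.9%), the NCI-H1048 POU2F3 antibody 81.0% (68.3%) and HA-POU2F3 of NCI-H1048 cells 28.6% (15.0%). HA-POU2AF2 kept 7 of 51, or 13.7% (2.45%). Of these 7, 3 were at POU2F3, 2 at POU2AF2 and 2 at IRAG2. Some other lists had high shares too. The NCI-H526 POU2F3 antibody kept 8 of 16 sites at housekeeping genes and 10 of 17 at neuroendocrine genes. It kept 8 of 37 at mSWI/SNF genes, 4 of 11 at plasma cell genes and 0 of 5 at hepatocyte genes. HA-POU2F3 of NCI-H526 cells kept 63.6% at housekeeping and 78.6% at neuroendocrine genes. None of these kept shares was matched for strength, and stronger sites were kept more often.

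The genes with the most core sites were long ones. DLG2 and GPC6 held 25 each and LRP1B 24, in windows of 2183, 1191 and 1910 kb. Per 100 kb they held 1.15, 2.1 and 1.26, and PARD3, with 21 in 716 kb, held 2.93. The HA-POU2AF2 regions at DLG2, 16 with DMSO, were all lost.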

How the data were processed

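ChIP-seq peak lists of 20 libraries were used, with 1 library per condition and no replicates. The authors aligned Trimmomatic-trimmed (0.39) reads to GRCh38 with BWA (0.7.17-r1198-dirty), filtered them with SAMtools (1.9), removed duplicates with Picard, and called peaks with MACS2 (2.1.1.20160309) without a named control (q-value cutoff 0.05), then removed blacklisted regions. The fold enrichment (a ratio of the summit to the local background), the −log10 p and −log10 q values, the score and the distance from start to summit are as deposited by the authors. Read totals were not used here. The fold of a region depends on the depth of its library, so folds were ranked only within a list. Folds of a named site with DMSO and AU-15330 are given as deposited and are not scaled between libraries.

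Regions on chromosomes 1 to 22 and X were used, 1326 to 89850 per list. Overlap was at least 1 base. Python (3.11.15) with numpy (2.4.6), pandas (2.3.3), scipy (1.17.1) and pysam (0.24.0) gave overlaps, exact 95% binomial intervals, and motif counts within 100 bases of the summit and in windows 2 kb away that overlapped no peak. Genes were those of GENCODE 44, and promoters and nearest genes refer to protein-coding genes. The pileup at a summit was recovered from the fold and the p-value as a whole number, to a tolerance of 0.002, for 100% of regions in 18 lists. It was recovered for at most 6.03% of regions in the lists of the unnamed HA protein, which have no summit column and therefore no levels here. Background pileup was 1.21 to 4.03. The procedures were tested on simulated data. Comparisons of equal strength weighted the shares of 20 fold classes between core and NCI-H526-only regions, or of 5 fold classes between the 4 classes of site, to a common distribution.

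The core sites and gene lists were chosen with earlier results of these data known. Sites and genes named singly were the strongest core sites of up to 12 tuft cell genes and of the tuft cell genes that the paper names, the 10 best sites by the worse of their ranks in both lines, the 5 best lost and the 5 best kept in all 5 named pairs, the 5 best with a region in all 20 lists, the 5 best distal sites found in no other list, and the 10 genes with the most core sites. Genes named only as lacking a core site, and those of other cell types, were chosen after their values were seen. The first of these sets was described by its core sites, and of the others only some are named. Some named items are not reported here. Printed sequences hold 61 bases, or 29 where an untranslated region is annotated. Alternatives were 50% of the region covered, a −log10 q of at least 5, equal numbers of regions, summits within 200 bases, the bases common to both lines, other promoter, motif and gene windows, and 2 other measures of level.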

Additional observations from a re-analysis of the deposited data

Results flagged for a closer look

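With the POU2F3 antibody, the median ratio of the AU-15330 to the DMSO level at kept core sites lay on opposite sides of 1 in the lines in 3 of the 4 classes of site. At distal sites without the octamer core it was 0.625 in NCI-H526 cells and 1.10 in NCI-H1048 cells. At promoter sites with the octamer core it was 0.599 and 1.43. At promoter sites without it, the ratios were 0.777 and 2.24. With 1 library per condition the difference between the lines was not tested.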

How the results depend on the processing

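Several of the largest moves came with equal numbers of strongest regions, for which the core sites were formed again and differed between results. There the NCI-H526 POU2F3 antibody kept most of 6816 sites and the NCI-H1048 antibody a smaller share of 14478. These sets are unlike, so the shares do not rank the lines. The −log10 q limit also formed the core sites again. Shares are given here for 50% of the NCI-H526 region covered, a −log10 q of at least 5, the same number of strongest regions, summits within 200 bases and the bases common to both lines, in this order. HA-POU2F3 of NCI-H526 cells was at 57.5%, 64.3%, 70.2%, 62.4% and 68.4% of core sites, HA-POU2AF2 at 38.9%, 49.8%, 67.5%, 47.7% and 53.1%, and HA-POU2F3 of NCI-H1048 cells at 30%, 42.0%, 66.4%, 41.0% and 43.7%. At least 1 myeloma list was at 31.7%, 31.0%, 26.9%, 31.9% and 34.8%. The shares kept were 22.5%, 33.3%, 64.7%, 34.1% and 35.4% for the NCI-H526 POU2F3 antibody, 19.1%, 23.5%, 44.1%, 29.1% and 31.6% for HA-POU2F3 of that line, and 0.935%, 1.31%, 11.5%, 2.05% and 2.38% for HA-POU2AF2. They were 56.6%, 56.6%, 55.3%, 55.8% and 60.1% for the NCI-H1048 POU2F3 antibody and 6.11%, 7.61%, 21.3%, 11.1% and 12.4% for HA-POU2F3 of that line. For the unnamed HA protein, which has no summits, the alternatives without the summit distance gave 27.7%, 21.9%, 60.9% and 39.7% for presence and 1.57%, 2.32%, 16.6% and 3.32% for sites kept. The cause of these moves was not tested.

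Promoters made up 32.2% with a distance of 2 kb and 33.2% with all annotated genes. The octamer core was at 40.9% within 50 bases and at 51.6% around the NCI-H1048 summit. At equal fold, 24.2% of NCI-H526-only regions were kept. The median level ratios, taken as the ratio of folds, were 0.691 and 0.741 for the antibody and the tag in NCI-H526 cells and 1.15 and 0.789 in NCI-H1048 cells. With the median local background they were 0.559 for the antibody in NCI-H526 cells, and 1.42 for the antibody and 0.797 for the tag in NCI-H1048 cells. The measures of level were chosen after seeing the data. No paired analysis was possible because each condition has 1 library. The shares kept are limited by the unknown depth of the libraries, and a site that fell below the calling threshold is counted as lost whatever its remaining level.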
